A study of Mus musculus with 30 samples.

Results

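Synaptotagmin 4 (Syt4) is a membrane protein of secretory vesicles, and its RNA was followed in AtT-20 cells treated with corticotropin-releasing hormone (CRH). The gene is represented by every spot of the array named synaptotagmin 4, which are 4 of 24192 spots (numbers 4335, 6751, 12034 and 15969). The gene was chosen by its CRH ratio, since spots 6751 and 15969 had some of the highest mean ratios over time on the array, so these ratios are given as a description and without a test. The AtT-20 line was derived from a tumour of mouse corticotropes, and it stands for 1 cell type and not for the mixed tissue of the pituitary. FCS-deprived cells received 100 nM human/rat CRH in DMEM without serum for 1, 3, 6, 12 or 24 h, and untreated cells, also deprived of serum, were harvested at the same times. At each time point the treated and untreated RNA were hybridised together on 6 arrays, 3 with the treated RNA in Cy3 (replicates 1 to 3) and 3 with the dyes exchanged (replicates 4 to 6). The 6 arrays are technical replicates, so their SD measures hybridisation and scanning and not the spread between cultures.

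Synaptotagmins are a family of vesicle proteins with paired C2 domains, which in several members bind calcium and couple its entry to membrane fusion. Syt4 differs from the classical calcium sensors in a residue of its first C2 domain, and in neuroendocrine cells it sits largely on dense-core granules, the organelles that in corticotropes carry ACTH. It is also known as an early gene that depolarisation and cyclic AMP induce in neuroendocrine lines, and CRH acts on corticotropes through a receptor that raises cyclic AMP.

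Every value below is the log2 of treated over untreated intensity after a loess correction within each print-tip block, unless it is called an intensity or a level. A spot was used only if its intensity exceeded the 10th percentile of both channels on all 30 arrays. This left 14375 spots, and among them 3 of the 4 synaptotagmin 4 spots. Spot 4335 passed on 22 of 30 arrays and is treated separately. The median intensity of a channel lay between 458 and 2038. Precision on the effect of CRH is limited by having 1 pair of RNA extracts per time point, which more arrays would not change. Marker genes of the corticotrope lineage were looked up, and 4 of 8 could be matched by name. Spots for Pomc (the ACTH precursor), Tbx19 and Neurod1 (transcription factors of the lineage) and Nr3c1 (the glucocorticoid receptor) lay above the limit on all 30 arrays. Of the other pituitary lineages 1 gene could be matched, Gh (growth hormone), and its spot also lay above the limit on all 30 arrays, with a median intensity of 553 in untreated RNA. Of 20 spots for fibroblast and matrix genes, 10 passed on every array. The summed median intensity of those 20 spots was 15140 in untreated and 14321 in CRH-treated RNA. The limit was exceeded on all 30 arrays by 14375 of 22830 gene spots, so exceeding it does not establish the identity of the cells. Ratios come from whole cultures, so a change in the share of expressing cells and a change of RNA per cell cannot be told apart.

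Spot 6751 was higher in CRH-treated than in untreated RNA on 28 of 30 arrays, with a mean over the 5 time points of 0.59 (SE 0.07), or 1.5-fold. At 1 h its 6 arrays ran from -0.24 through a median of 0.46 to 1.08. At 3 h they ran from 0.48 through 0.69 to 1.00, and at 6 h from 0.26 through 0.57 to 1.09. All 6 arrays lay above 0 at 3 h (4.63% of all spots did) and at 6 h (1.29% of all spots), and at 1 h a single array lay below it. At 12 h they ran from 0.17 through 0.86 to 1.32, again all above 0, as in 2.6% of all spots. At 24 h they ran from -0.13 through 0.45 to 0.66, with 1 array below 0, while 2.66% of all spots had all 6 above 0. The mean was 0.43 ± 0.46 at 1 h, and it stood at 0.69 ± 0.19 after 3 h, 0.66 ± 0.34 after 6 h, 0.79 ± 0.50 after 12 h and 0.37 ± 0.28 after 24 h (SD, n = 6 each). In descending order the time points were 12, 3, 6, 1 and 24 h, and every gap between neighbours in this order was smaller than either of their SDs. The ratio was thus positive throughout, and its peak is not set apart from the neighbouring times by the array spread. The arrays of all 14375 spots had a median SD of 0.32 within a time point.

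Spot 15969 had a mean of 0.55 (SE 0.07), or 1.47-fold, and was above 0 on 25 of 30 arrays. At 1 h its arrays ran from 0.34 through 0.65 to 1.04, and at 3 h from 0.14 through 0.59 to 1.12. At 6 h they ran from -0.09 through 0.55 to 0.89. The first 2 time points thus lay wholly above 0, at 1 h like 2.85% of all spots, and at 6 h 2 arrays lay just below it. At 12 h the arrays ran from 0.07 through 0.55 to 1.22, and at 24 h from -0.27 through 0.26 to 1.19. At 24 h the arrays were divided, 3 above and 3 below 0. The mean was 0.69 ± 0.30 at 1 h and 0.64 ± 0.35 after 3 h, then 0.43 ± 0.44 after 6 h, 0.67 ± 0.46 after 12 h and 0.34 ± 0.58 after 24 h (SD, n = 6 each). Here the order was 1, 12, 3, 6 and 24 h, and again no neighbours differed by more than either SD. Both spots had their lowest mean at 24 h, and they differed in where the highest one fell.

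Spot 12034 carries the same name and had no ratio of that kind. Its mean over the time points was -0.02 (SE 0.05), with 14 arrays above and 16 below 0. At 1 h the arrays ran from -0.54 through 0.09 to 0.59, the widest range of this spot. From 3 to 24 h all its arrays lay between -0.41 and 0.26. The time point means were between -0.07 ± 0.22 at 24 h and 0.05 ± 0.16 at 12 h (SD, n = 6 each). The spot was bright enough to be measured, with a median intensity of 3593 in CRH-treated and 3431 in untreated RNA against array limits between 117 and 395. Spots 6751 and 15969 had medians of 2401 against 1576 and of 1912 against 1134. Spot intensity is not comparable between different cDNA probes, and these values only place all 3 spots above the limits. The clone sequences behind these spots were not used here, so neither the part of the transcript that each probe covers nor the annotation of the clones was tested. The names are those of the scanner files, and for another spot of the array the study's own gene list gives a different gene.

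**Figure D1:**
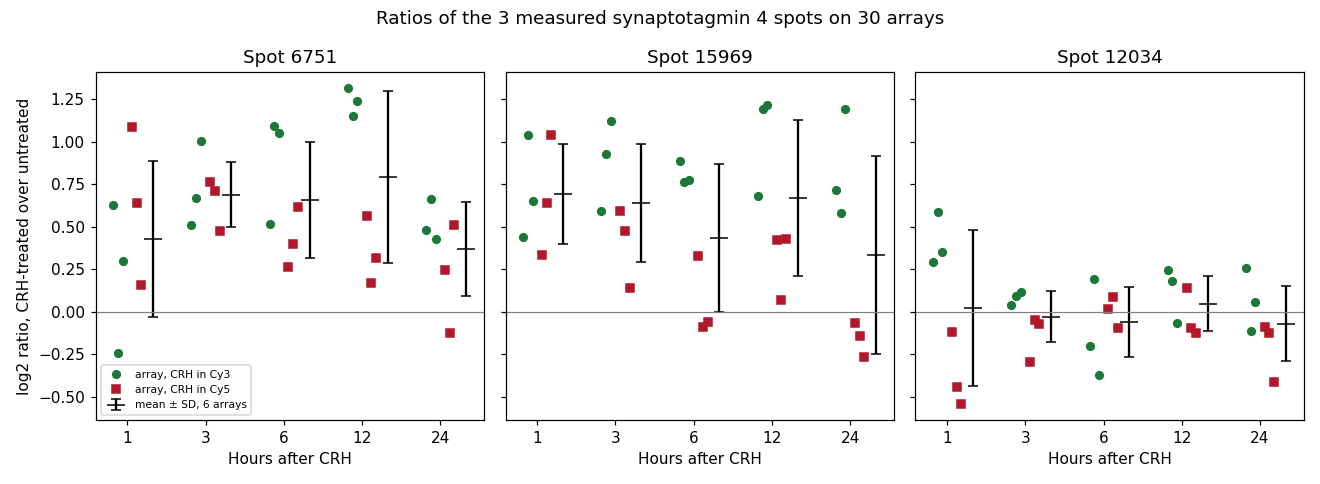
Ratio of treated to untreated RNA on the log2 scale (vertical axis) against hours after CRH (horizontal axis, categories) for spots 6751, 15969 and 12034. Each point is 1 array, circles for CRH in Cy3 and squares for CRH in Cy5, and bars are the mean ± SD of 6 arrays; spots 6751 and 15969 lie mostly above 0 (28 and 25 of 30 arrays), and spot 12034 lies around 0.

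Across the array, the same contrast was tested with limma on the 5 time point averages (14375 spots, Benjamini-Hochberg adjusted p under 0.05). It called 7 spots higher (0.0487%) and 1 lower (0.00696%), and spots 6751 and 15969 are 2 of the 7. As this contrast chose the gene, nothing is read from their place in it. The count of spots called higher was 0 with the 10th percentile subtracted, with dim spots kept, with a robust, trended variance prior and without the 12 h average, so both Syt4 spots were uncalled there, and it was 30 without the 1 h average. In descending order of the mean they stood at positions 3 and 4 of 14375, and spot 12034 at position 8195. A mean of at least 1.5-fold with all 6 arrays above 0 was met by spot 6751 at 3, 6 and 12 h and by spot 15969 at 1, 3 and 12 h. The share of all spots that met it was 0.0974% at 1 h and 0.146% after 3 h, then 0.0348% after 6 h, 0.125% after 12 h and 0.104% after 24 h.

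A further 3 spots bear on the gene. Spots 11999 and 14996 are RIKEN clones whose name gives synaptotagmin 4 as the product, and both were measured on all arrays. Spot 11999 had a mean of 0.03 (SE 0.07), with its highest time point at 1 h (0.28 ± 0.38, SD, n = 6) and its lowest at 6 h (-0.13 ± 0.18). Spot 14996 had a mean of 0.03 (SE 0.05), and its time point means ran from -0.05 at 3 h to 0.07 at 6 h. These clones therefore lay near 0, like spot 12034 and unlike spots 6751 and 15969. The dim spot 4335 had a median intensity of 303 in CRH-treated and 319 in untreated RNA. When dim spots were kept, its mean was 0.01, with time point means from -0.21 ± 0.57 at 3 h to 0.30 ± 0.74 at 1 h (SD, n = 6). Its SDs ran from 0.41 to 0.74, so a ratio of the size seen in spot 6751 lay within or close to the array spread of this spot. Of 6 spots with synaptotagmin 4 in their deposited name, 2 thus had a raised ratio, and spots 12034, 11999 and 14996 did not, as far as these names hold. The dim spot 4335 cannot be placed on either side.

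The arrays of the raised spots were also compared by dye orientation. Where the treated RNA carried Cy3, spot 15969 was above 0 on 15 of 15 arrays, with a mean of 0.85. A share of 2.86% of all spots was above 0 on every array of that orientation. Where it carried Cy5, spot 15969 was above 0 on 10 of 15 arrays, with a mean of 0.26. The Cy3 mean was the higher one at 5 of 5 time points, a pattern of 22.1% of all spots. At 24 h the Cy3 arrays of this spot had ratios of 0.71, 0.58 and 1.19, and the Cy5 arrays -0.07, -0.14 and -0.27. These 2 sets lie on opposite sides of 0, as they did in 24.8% of all spots at 24 h. The sets of spot 15969 did not overlap at 4 of 5 time points, namely 3, 6, 12 and 24 h. Of all spots 43.8% had no overlap at 3 h, 41.7% after 6 h, 45.2% after 12 h and 43.7% after 24 h. At 6 h the ranges were 0.76 to 0.89 in Cy3 and -0.09 to 0.33 in Cy5, while at 1 h the sets coincided (means of 0.71 ± 0.30 and 0.67 ± 0.35, SD, n = 3 each). The difference between orientations over all arrays was 0.60, and 6.71% of all spots had one as large in that direction.

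Spot 6751 was above 0 on 14 of 15 arrays in each orientation. Its means were 0.72 where the treated RNA carried Cy3 and 0.45 where it carried Cy5. At 12 h its Cy3 arrays had 1.32, 1.15 and 1.24 and its Cy5 arrays 0.56, 0.17 and 0.32, with no overlap. At 1 h the order was turned, with means of 0.23 ± 0.44 in Cy3 and 0.63 ± 0.46 in Cy5 (SD, n = 3 each), and the sets overlapped. The overall difference of 0.27 was one that 25.9% of all spots reached. Spot 12034 had a like difference (0.26, reached by 26.6%), and its mean was 0.11 for treated RNA in Cy3 and -0.15 in Cy5. Its orientations lay wholly on opposite sides of 0 at 1 h (17.8% of all spots) and at 3 h (22.8% of all spots). The sign of the mean over all times thus differed between orientations in spot 12034, whose mean lay near 0. In spots 6751 and 15969, chosen for a high mean, it was the same in both. At 6 h the order in spot 12034 was reversed, with -0.13 in Cy3 and 0.003 in Cy5. Whether the difference between orientations itself changed with time was tested with a linear model over the 30 arrays. The interaction of time and dye gave p = 0.0118 for spot 6751, p = 0.0444 for spot 15969 and p = 0.0040 for spot 12034 (F tests, n = 30 arrays), with adjusted p of 0.0746, 0.164 and 0.0388. At the threshold of 0.01, spot 12034 passed and the other two did not, and 14.8% of all spots passed. With hours as a single number, spot 12034 no longer passed (p = 0.401, n = 30 arrays).

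**Figure D2:**
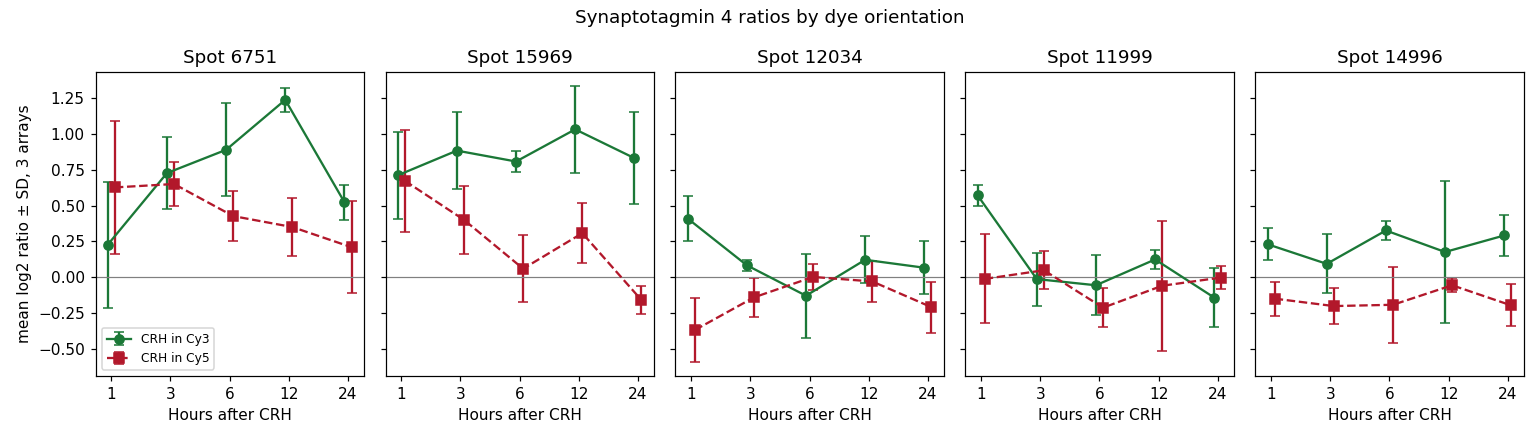
Mean ratio of treated to untreated RNA on the log2 scale (vertical axis, ± SD of 3 arrays) against hours after CRH for the 5 measured spots that name Syt4, by the dye of the treated RNA, Cy3 (circles) or Cy5 (squares). The 2 orientations of spot 15969 coincide at 1 h and lie apart at 24 h (0.83 and -0.16), and those of spot 12034 lie apart most at 1 h (0.41 and -0.37).

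Arrays were quantified on 4 days. The 1 h arrays had a day of their own, and those of 3 and 6 h shared another. At 12 h replicates 1 to 4 belong to one day and replicates 5 and 6 to a later one, shared with the 24 h arrays. The 12 h mean of spot 6751 was 1.07 over the first 4 arrays and 0.24 over the last 2, and that of spot 15969 was 0.88 and 0.25. Of the first 4 arrays 3 had the CRH-treated RNA in Cy3, and both of the last 2 had it in Cy5. Replicate 4, the Cy5 array of the earlier day, had 0.56 in spot 6751 and 0.42 in spot 15969. The later pair had 0.17 and 0.32 in spot 6751 and 0.07 and 0.43 in spot 15969. The part of the day in these ratios was not tested.

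The level of the gene in each channel was expressed as the log2 of the spot's intensity over the median intensity of the measured spots in that channel. In untreated cells spot 6751 had a level of -0.55 ± 0.70 at 1 h, and it stood at -0.37 ± 0.56 after 3 h, -0.43 ± 0.38 after 6 h, 0.24 ± 0.77 after 12 h and 1.21 ± 0.71 after 24 h (SD, n = 6 each). Spot 15969 went from -0.63 ± 0.24 at 1 h to 0.77 ± 0.36 at 24 h in untreated cells. Both spots were thus brighter at 24 h than at 1 h without CRH, by 1.76 and 1.40 on the log2 scale, with no overlap between the arrays of these times, as in 11.2% of all spots. A rise as large was found in 1.31% and 3.46% of all spots. In CRH-treated cells the corresponding differences in level were 1.74 and 1.00, reached by 1.91% and 11.3% of all spots. There the arrays of spot 6751 did not overlap between 1 and 24 h, and those of spot 15969 did. The share of all spots without such an overlap was not counted in that channel, so nothing is read from it. Within a dye the untreated level of spot 6751 differed by 1.80 in Cy5 and 1.72 in Cy3, and that of spot 15969 by 1.21 and 1.59. Spot 12034 had a level of 0.88 ± 0.27 at 1 h and 1.00 ± 0.22 at 24 h in untreated cells, a difference of 0.12. The 1 h and 24 h arrays were quantified on different days and come from different cultures, so time, day and culture cannot be told apart in these levels. At 12 h the levels of spot 15969 also varied between arrays of the same RNA. On replicates 1 to 3, with untreated RNA in Cy5, its untreated level was -1.11, -1.43 and -1.64. On replicates 4 to 6, with untreated RNA in Cy3, it was 0.78, 0.88 and 0.81. Its CRH-treated level moved along, from -0.35, -0.10 and -0.24 to 1.28, 1.04 and 1.39. This shift followed the dye orientation, and replicate 4 was quantified on the same day as replicates 1 to 3. Its cause was not tested. Differences in level between arrays are thus given with this spread in view.

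**Figure D3:**
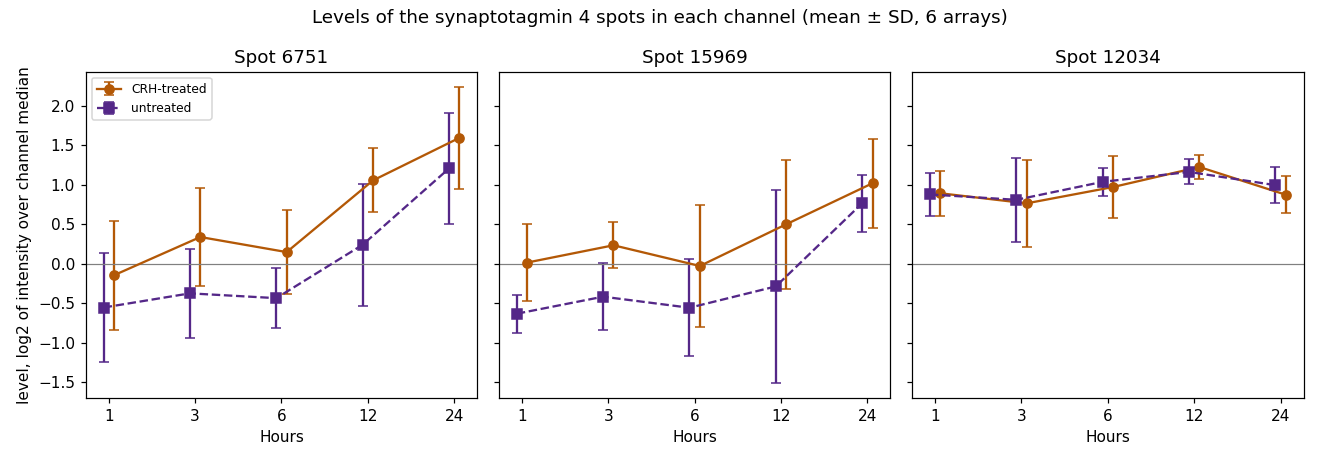
Level of spots 6751, 15969 and 12034 (vertical axis, log2 of intensity over the median of the measured spots in that channel) against hours, for CRH-treated (circles) and untreated RNA (squares), as mean ± SD of 6 arrays. Both channels of spots 6751 and 15969 are higher at 24 h than at 1 h, and spot 12034 stays between 0.77 and 1.23 in both channels.

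The spots that name Syt4 were also compared from array to array. After the mean of each dye orientation was taken off, spots 6751 and 15969 correlated at r = 0.16 over 30 arrays, spots 6751 and 12034 at r = -0.27 and spots 15969 and 12034 at r = -0.23. The highest value among the 5 measured spots was r = 0.34, between spots 11999 and 12034. With the mean of each orientation within each time point taken off instead, spots 6751 and 15969 had r = -0.40 and spots 11999 and 15969 r = -0.52. Over the 5 time point means spots 6751 and 15969 had r = 0.43. Points of the same time point share their RNA, so these are descriptions. For spot 6751 the nearest patterns by the same measure were those of expressed sequence AI447493 (r = 0.69), RIKEN cDNA 1810045K17 (r = 0.69), eukaryotic translation initiation factor 2 subunit 3 X-linked (r = 0.68), transcription factor 15 (r = 0.68) and RIKEN cDNA 3110073H01 (r = 0.67). For spot 15969 they were RAS protein activator like 1 (r = 0.78), dual specificity phosphatase 8 (r = 0.68), RIKEN cDNA 1110020M21 (r = 0.68), expressed sequence AA552998 (r = 0.67) and protocadherin 10 (r = 0.67). The lists have no spot in common, and the mean ratios over time of these 10 spots lay between -0.13 and 0.20. For spot 12034 the nearest were AI845243 (r = 0.72), a RIKEN clone of unknown product (r = 0.66), AI846528 (r = 0.66), AI834856 (r = 0.65) and an unnamed EST (r = 0.65). Among 14374 other spots, spot 15969 stood at position 3849 in likeness to spot 6751.

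Of 10 spots for other synaptotagmins, 4 were measured on all arrays. Synaptotagmin 5 had a mean of -0.08 (SE 0.06), synaptotagmin 8 one of -0.03 (SE 0.08), and the 2 spots of synaptotagmin 13, a member that lacks the calcium-binding residues, had 0.03 (SE 0.06) and 0.10 (SE 0.08). None of the 4 passed limma's test of the CRH effect, whose lowest adjusted p among them was 0.952, and 0 had an unadjusted p under 0.05, against 5.38% of all spots. F tests over the 30 arrays found a change over time in 1 of the 4 at p under 0.01, against 9.86% of all spots. This was spot 6728 of synaptotagmin 13 (adjusted p = 0.0161), with means of 0.37 ± 0.31 at 1 h and 0.36 ± 0.19 after 3 h, then 0.06 ± 0.22 after 6 h, -0.25 ± 0.18 after 12 h and -0.03 ± 0.38 after 24 h (SD, n = 6). With the day of quantification as a block it did not pass (F test, adjusted p = 0.613). That block compares only 3 with 6 h and 12 with 24 h, so it cannot test the change from 1 to 12 h. The arrays of spot 6728 at 3 h were all above 0, as in 4.63% of all spots. Those at 12 h were all below it, and the share of all spots with that pattern was not counted. The other spot of that gene, 6563, had 0.04 ± 0.42 at 3 h and 0.12 ± 0.41 at 12 h. Spots of synaptotagmins 1, 3 and 9 missed the limit on 1 array each. The remaining spot of synaptotagmin 13 passed on 22 arrays, synaptotagmin-like 2 on 17 and synaptotagmin 7 on 5. With dim spots kept, the means of these 6 spots lay between -0.02 and 0.10.

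**Figure D4:**
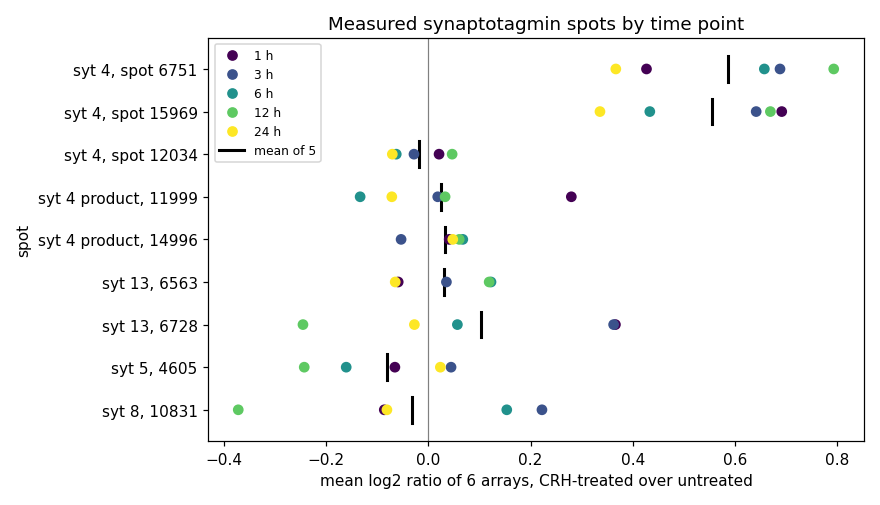
Mean ratio of treated to untreated RNA on the log2 scale at each time point (points, horizontal axis) and the mean of the 5 time points (bars) for the 9 measured synaptotagmin spots (vertical axis). Spots 6751 and 15969 lie above 0.33 at every time point. The means over time of the other 7 spots lie between -0.08 and 0.10, though spot 6728 of synaptotagmin 13 reaches 0.37 at 1 h and 0.36 at 3 h.

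The other proteins of granule release were taken from a list of the fusion machinery (SNAREs, their binding proteins, RAB3 and RAB27 and vesicle proteins). Of 60 genes 38 could be matched by name, and 40 spots of 31 genes were measured. By limma 0 rose and 0 fell, 0 had an unadjusted p under 0.05, and the median of their mean ratios was -0.01, beside -0.0074 over all spots. This test is of the mean over the 5 time points, so a response at single times was not tested in these lists. The most distant values were those of Napa (0.13), which helps to take SNARE complexes apart, of Stx6 (-0.12) and Vamp8 (-0.10), both SNAREs, and of Nsf (-0.10), the ATPase that Napa recruits. Further spots of Napa, Stx6 and Nsf lay between -0.02 and 0.01. At single times the first Napa spot had -0.20 ± 0.13 at 1 h and 0.43 ± 0.08 at 3 h (SD, n = 6 each). The other Napa spot had 0.07 ± 0.17 and -0.33 ± 0.31 at these times. Of the genes for granule cargo and processing, 13 of 22 were matched and 10 spots of 7 genes were measured. None passed limma's test and 1 had an unadjusted p under 0.05 (5.38% of all spots), with a median of 0.05. Scg3, a granin that binds cargo to granule membranes, had 0.13 (SE 0.06), Cpe, which trims hormone precursors, 0.13 (SE 0.06), Pomc 0.11 (SE 0.07) and Chgb, another granin, 0.11 (SE 0.08). The other spots of Scg3 and Cpe had 0.07 and 0.03. Pomc had -0.18 ± 0.25 at 1 h and 0.39 ± 0.28 at 3 h, and Chgb -0.24 ± 0.14 and 0.37 ± 0.46 (SD, n = 6 each). The highest mean ratio over the time points in both lists was 0.13. The raised Syt4 spots had 0.55 and 0.59, but they were chosen for a high ratio, so nothing is read from this difference. The other measured spots that name Syt4 had -0.02 (spot 12034), 0.03 (spot 11999) and 0.03 (spot 14996).

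Of 31 other genes known as targets of cyclic AMP and CREB, 24 were matched and 14 spots of 12 genes were measured. By limma 0 rose and 1 fell, and 5 had an unadjusted p under 0.05, against 5.38% of all spots. The median of the 14 was 0.01. The one that fell was Rgs4, a regulator that shortens G-protein signals, with -0.47 (SE 0.07, limma, adjusted p = 0.0195). Its time point means were -0.73 at 1 h and -0.32 after 3 h, then -0.28 after 6 h, -0.55 after 12 h and -0.46 after 24 h. The call of Rgs4 was lost when the 12 h or the 24 h average was left out, and also with the 10th percentile subtracted, with dim spots kept and with a robust, trended variance prior. Next came Odc1, the first enzyme of polyamine synthesis, with 0.41 (SE 0.08, adjusted p = 0.154 by limma), Pde4b, which degrades cyclic AMP, with 0.26 (SE 0.07, adjusted p = 0.471 by limma) and Rgs2, a relative of Rgs4, with -0.25 (SE 0.06, adjusted p = 0.387 by limma). A second spot of Pde4b had 0.16 and a second spot of Rgs2 had -0.04. Odc1 had its largest mean at 3 h (0.73) and only 0.14 at 24 h. The measured Crem spot had -0.05 (SE 0.07) and is not the one in the study's gene list. Fosl2 had no measured spot under its own name. The study's list gives as Fosl2 a spot named B-cell CLL/lymphoma 7C, which was not counted here. That spot had 0.61 (SE 0.11, adjusted p = 0.088 by limma). The study reports a rise of Crem and Fosl2 after CRH by array and qRT-PCR. Of the corticotrope markers 0 of 5 spots passed limma and 2 had an unadjusted p under 0.05 (5.38% of all spots), with a median of -0.15. Both of those were spots of Neurod1 (-0.40, SE 0.11, and -0.31, SE 0.09), which lay above 0 at 1 h and below 0 from 3 to 24 h. Of the fibroblast and matrix spots 0 of 10 passed limma and 1 had an unadjusted p under 0.05 (5.38% of all spots), with a median of -0.02. The Gh spot had -0.05 (SE 0.06).

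**Figure D5:**
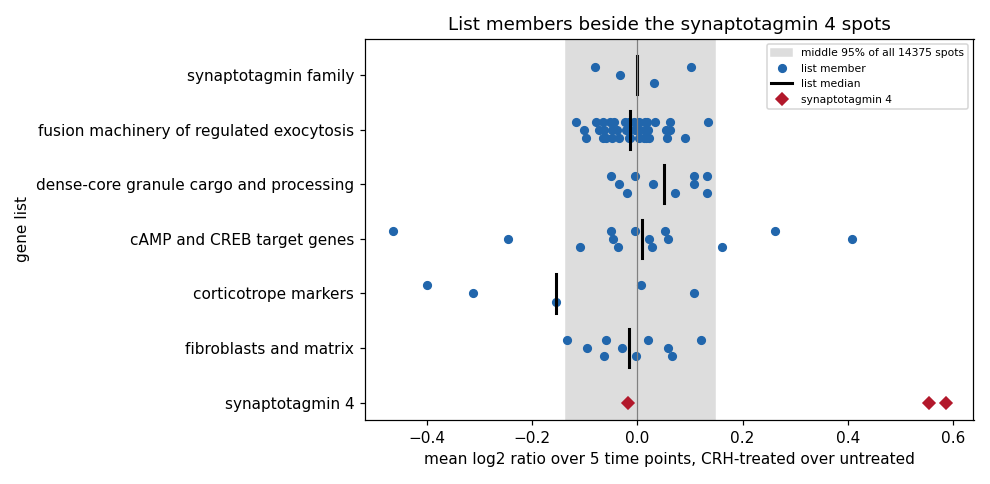
Mean log2 ratio over the 5 time points (horizontal axis, CRH-treated over untreated RNA) of each measured spot of 6 gene lists (circles, list median as a bar) and of spots 6751, 15969 and 12034 (diamonds), by list on the vertical axis. The grey band holds the middle 95% of all 14375 spots (-0.14 to 0.15). The raised Syt4 spots, chosen for a high ratio, lie at 0.55 and 0.59. Spot 12034 (-0.02) and every measured spot of the fusion machinery list lie within the band.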

How the data were processed

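Per array, the authors deposited the scanner intensity of each spot and of its local background in Cy3 and Cy5 (QuantArray), neither background-subtracted nor normalised. They also deposited a table of log2 ratios for 12593 spots, made by the authors after removal of the lowest 10% of intensities and a print-tip loess fit. Its columns correlated with the ratios used here at r from 0.979 to 0.992 over 11341 shared spots, so it runs in the direction CRH-treated over untreated.

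Of 24192 spots in 48 blocks, 1170 were empty and 192 controls. Log2 ratios were corrected by loess (span 0.75, symmetric family, 4 iterations) within blocks without background subtraction, and dim spots were left out as described. In 1 file channel 1 held Cy5, and 2 further channels in it were not used. Limma 3.58.1 in R 4.3.3 was run on the 5 time point averages against 0, and F tests on the 30 arrays (time as 5 levels, dye, and their interaction) at p under 0.01. The scripts were checked on simulated data. Since the 6 arrays of a time point share 1 pair of RNA extracts, the F tests measure technical spread only.

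The gene and all lists were chosen with earlier results of these data known. List genes were matched by the deposited spot names, and an ambiguous name was left unmatched. Genes were named by rule: all synaptotagmin spots, the 5 spots most like each Syt4 spot in pattern, from each list every member past limma and at most 4 others by size of ratio, and the markers. Alternatives covered the background, loess, filter, deposited ratios, variance prior, orientations and time points.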

Additional observations from a re-analysis of the deposited data

Results flagged for a closer look

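At 24 h all 3 arrays of spot 15969 with CRH-treated RNA in Cy3 lay above 0 and all 3 with it in Cy5 below 0, with a difference between the means of 0.99. Spot 12034 had the same opposition at 1 h (difference 0.78) and at 3 h (0.22). Among the other 6 measured synaptotagmin spots, counting the RIKEN clones, such an opposition was found in 9 of 30 sets of arrays, and at 24 h in 6 of all 9 spots. Over the array it was found in 17.8% of spots at 1 h, in 22.8% after 3 h and in 24.8% after 24 h. These differences at single time points were not tested. Spot 6728 of synaptotagmin 13 changed over time (F test over the 30 arrays, adjusted p = 0.0161), from 0.37 at 1 h to -0.25 at 12 h. With the day of quantification as a block, which compares 3 with 6 h and 12 with 24 h, the adjusted p was 0.613. That block cannot test the change from 1 to 12 h. Of 45 sets of 6 arrays (9 synaptotagmin spots at 5 time points), 0 had an array past Dixon's limit.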

How the results depend on the processing

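The mean of spot 6751 moved by less than its SD over time points in all 9 settings tried beside the left-out time points, between 0.45 and 0.72. Spot 15969 moved further only when a single orientation was used (0.85 with CRH-treated RNA in Cy3, 0.26 with it in Cy5), and so did spot 12034 (0.11 and -0.15). Without 1 time point each, the means ranged from 0.53 to 0.64 for spot 6751, from 0.52 to 0.61 for spot 15969 and from -0.03 to -0.0057 for spot 12034. By day of quantification, a setting chosen after seeing the data, the 12 h mean of spot 6751 was 0.24 on the later day. The interaction of spot 12034 missed the threshold with hours as a number (p = 0.401, n = 30 arrays) and with one loess curve per array (p = 0.0124).

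Over all spots, limma called 0 higher and 0 lower with the 10th percentile subtracted, with dim spots kept and with a robust, trended prior, where 742 of 14375, 1208 of 22830 and 473 of 14375 spots had an unadjusted p under 0.05 (5.16%, 5.29% and 3.29%), against 774 of 14375 (5.38%). Without 1 time point each, it called 0 to 30 higher (30 without 1 h, 4 without 3 h, 4 without 6 h, 0 without 12 h) and 0 to 9 lower (9 without 1 h, 0 without 12 h or 24 h). In the cyclic AMP list the 1 call became 0 in those 3 settings and 0 to 2 without a time point, 2 of them without 1 h. The corticotrope markers had 0 to 2 calls, 2 of them without 1 h. No other list and no other synaptotagmin spot gained a call in any setting. The cause was not tested.

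Change over time was called in 1418 spots at p under 0.01 and in 457 with the day as a block. The block compares only 3 with 6 h and 12 with 24 h, so these counts do not test the same change. With the replicate number as a block there were 1241. The numbers are shared labels only, since same-numbered arrays deviated together at r between -0.03 and 0.05.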
